A study of Arabidopsis thaliana with 6 samples.

Results

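The male meiocytes of wild-type Arabidopsis thaliana, accession Landsberg erecta (Ler, which carries the erecta mutation), were described from 3 RNA sequencing libraries, all those labelled Ler among the 6 of the series; the other 3 carry the knu-2 allele and were not analysed here. Both genotypes were handled alike: forceps pressed cells out of isolated anthers of stages 4 to 7, and messenger RNA was selected with poly-T beads. No marker line or sort is named, so a library can hold whatever cells left the anther with the meiocytes. The labels number the libraries as biological replicates without saying whether separate plants were used, so every SD below (n = 3) is the spread between these collections. Levels are in TPM, the read count of a gene divided by its length and scaled so that each library sums to 1000000, and they cover 27655 genes, of which 27445 are nuclear. Percentiles are of the mean TPM over those 27655 genes. With 1 group there is nothing to test, so ranges of the 3 libraries are set side by side and no p-value is given.

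A male meiocyte is the pollen mother cell, the one cell type of the anther that leaves mitosis to halve its chromosome number. It cuts its own DNA with the SPO11 complex, repairs the breaks on the homologous chromosome with recombinases such as DMC1 along a protein axis, turns some repairs into crossovers, and divides again without copying its DNA. During prophase it lies within a callose wall and is fed by the tapetum, the secretory layer around it that later supplies the pollen coat. RNA from pressed anthers is therefore read below first for the meiotic machinery, then for the neighbours.

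Promoter sequences of 6 genes that the levels turn on are shown first, because the share of genes with some short motifs differed between high and silent genes. They are the 250 bases upstream of the start that RefSeq annotates on TAIR10.1, 5′ to 3′, and no other gene of the files lies in these windows. Capitals mark matches, on either strand, to 1 of 8 motifs: the TATA box TATAAA, the telo box AAACCCTA, the site II element TGGGCC, the MSA core AACGG, the E2F site TTTCCCGC, the G box CACGTG, the GAGA repeat GAGAGAGA and the repeat CTTCTTCTT. The 6 were chosen after their matches were seen. DMC1 and ASY1 are the highest recombinase and axis genes, and PHS1 is the highest gene of the break formation list. A translation factor, a ribosomal protein and a histone stand for families with medians above 100 TPM. Tubulins and proteasome subunits, whose medians were higher, are not shown, and the ribosomal gene, emb2171, ranked 19th, below others of its family.
DMC1, chr3:8100933-8101182, minus strand: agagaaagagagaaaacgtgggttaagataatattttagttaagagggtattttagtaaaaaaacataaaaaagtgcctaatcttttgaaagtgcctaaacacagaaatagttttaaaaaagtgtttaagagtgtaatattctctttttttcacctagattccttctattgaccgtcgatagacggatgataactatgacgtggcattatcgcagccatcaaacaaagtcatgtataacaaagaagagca
ASY1, chr1:25243838-25244087, minus strand: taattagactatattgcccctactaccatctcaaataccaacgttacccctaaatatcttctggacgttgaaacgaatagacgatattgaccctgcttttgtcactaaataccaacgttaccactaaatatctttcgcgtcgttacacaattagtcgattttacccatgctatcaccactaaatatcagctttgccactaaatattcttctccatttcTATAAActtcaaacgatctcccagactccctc
PHS1, chr1:3558108-3558357, plus strand: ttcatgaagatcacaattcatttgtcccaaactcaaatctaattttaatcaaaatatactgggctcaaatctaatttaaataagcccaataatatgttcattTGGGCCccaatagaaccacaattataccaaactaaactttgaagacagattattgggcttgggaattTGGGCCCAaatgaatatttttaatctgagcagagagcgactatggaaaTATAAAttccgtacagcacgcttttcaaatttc
AT5G60390, elongation factor Tu family, chr5:24288346-24288595, plus strand: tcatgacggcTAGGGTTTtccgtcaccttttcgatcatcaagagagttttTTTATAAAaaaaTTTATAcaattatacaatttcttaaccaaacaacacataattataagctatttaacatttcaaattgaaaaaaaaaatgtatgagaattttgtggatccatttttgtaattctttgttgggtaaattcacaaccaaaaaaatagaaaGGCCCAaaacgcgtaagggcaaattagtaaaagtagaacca
emb2171, ribosomal protein L14p/L23e family, chr3:1167000-1167249, plus strand: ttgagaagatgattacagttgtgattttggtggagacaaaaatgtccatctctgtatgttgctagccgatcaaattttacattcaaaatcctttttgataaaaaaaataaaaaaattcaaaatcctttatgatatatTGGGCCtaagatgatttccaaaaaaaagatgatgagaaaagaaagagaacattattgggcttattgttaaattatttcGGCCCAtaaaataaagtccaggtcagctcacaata
AT5G65360, histone, chr5:26120582-26120831, minus strand: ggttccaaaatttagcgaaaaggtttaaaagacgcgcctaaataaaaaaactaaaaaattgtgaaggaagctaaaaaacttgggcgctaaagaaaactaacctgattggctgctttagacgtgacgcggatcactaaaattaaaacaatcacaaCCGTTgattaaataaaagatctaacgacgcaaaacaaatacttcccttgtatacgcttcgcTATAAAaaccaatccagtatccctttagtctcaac

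The DMC1 window held none of the 8 motifs, and DMC1 was the 25th highest nuclear gene. ASY1, PHS1 and the histone each had a TATA box whose nearest base lay 27, 28 and 30 bases before the start. PHS1 held 3 site II matches, of which 2 overlap as a palindrome, and emb2171 held 2. AT5G60390 held 1 telo box and 1 site II match, and its 3 TATA matches, 2 of them overlapping on opposite strands, lay 183 bases or more before the start. Over all windows the site II element was the motif that moved most with level. It stood in 35.4% of the 1000 highest nuclear genes, against 13.7% of all 27444 windows and 4.69% of the 5347 nuclear genes with no count in any library. The 3747 genes with it had a median of 20.2 TPM, and the 23697 without it 2.94 TPM. The share was higher still, 46.1%, among 334 ribosomal protein genes, which also carried the telo box in 16.5% of windows against 4.49% of all.

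The MSA core, the short form of an element bound by cell-cycle MYB factors, also rose with level, from 16.6% of silent genes to 28% of the 1000 highest. It was in 24 of 48 histone windows, 20 of 45 kinesin windows and 27 of 73 windows of the meiotic genes described below. These are 50%, 44.4% and 37.0%, against 20.6% of all windows and 22.8% of the ribosomal ones. The same 3 classes carried the site II element in 33.3%, 31.1% and 30.1% of windows, against 13.7% of all windows. Their median levels were 222, 16.5 and 87.6 TPM. Of all genes at 10 to under 100 TPM, 23.3% had the MSA core and 20.3% the site II element. At 100 TPM or more these shares were 25.7% and 30.4%. The TATA box went the other way, in 44.5% of the 1000 highest and 53.6% of the silent genes. Base composition moved with level as well: the median share of G and C was 33.2% in the windows of the 1000 highest genes and 30.4% in those of silent genes, and its part in the motif shares was not tested.

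The libraries carried the defining transcripts of meiocytes at high levels. DMC1, the meiosis-specific recombinase, stood at 1682, 1429.7 and 1415 TPM in replicates 1, 2 and 3, and ASY1, the HORMA-domain protein of the chromosome axis, at 766, 631 and 517 TPM. The cyclin-like SDS, needed for DMC1 to act between homologues, had 375, 339 and 312 TPM, and these 3 genes lay at percentiles of 99.9, 99.2 and 98.1. ZYP1a, a protein of the synaptonemal complex, had a mean of 212 ± 10.05 TPM. SYN1, the meiotic cohesin subunit, had 113 ± 9.91 TPM, and TAM, the A-type cyclin of the meiotic divisions, 108 ± 20.1 TPM. Lower were MMD1, a PHD-finger protein needed for chromosome condensation, at 32.8, 52.3 and 77.8 TPM, and MS5, which ends the meiotic programme after the second division, at 20.97, 36.9 and 59.5 TPM. The lowest of these 8 defining markers, MS5, lay at a percentile of 81.5. In RNA from many cells, fewer cells of a type and less RNA per cell cannot be told apart, here and for every marker below. Their replicate profiles differed: ASY1 was lowest in replicate 3, where MMD1, MS5 and TAM were highest.

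Total counts were 26150115, 27995200 and 19827980, and a gene of the median length of 1546 bp collected 18.1 to 26.3 reads for 1 TPM. A count of 0 at that length allows up to 0.114 to 0.166 TPM, taking 3 counts as the limit and covering counting error only. At 1 TPM or more in all 3 libraries stood 16122 genes, 58.3% of those in the files, and 2119 more reached it in 1 or 2 libraries. No count in any library was found for 5412 genes, 19.6%. The 17236 genes with a mean of 1 TPM or more had a median of 16.2 TPM and quartiles of 5.36 and 49.6 TPM. Over all genes the 95th percentile lay at 160.3 TPM and the 99th at 545 TPM.

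Transcript mass was spread over many genes. The 10 highest genes held 2.46%, 2.41% and 2.24% of TPM in replicates 1, 2 and 3, and the 100 highest 13.7%, 13.5% and 12.6%. It took 999, 1032 and 1142 genes to hold 50% of it. Replicate 3 was the flattest of the libraries on each of these measures, and it also had the most genes with any count, 20852 against 20203 and 20484, although it was the least deeply sequenced.

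**Figure D1:**
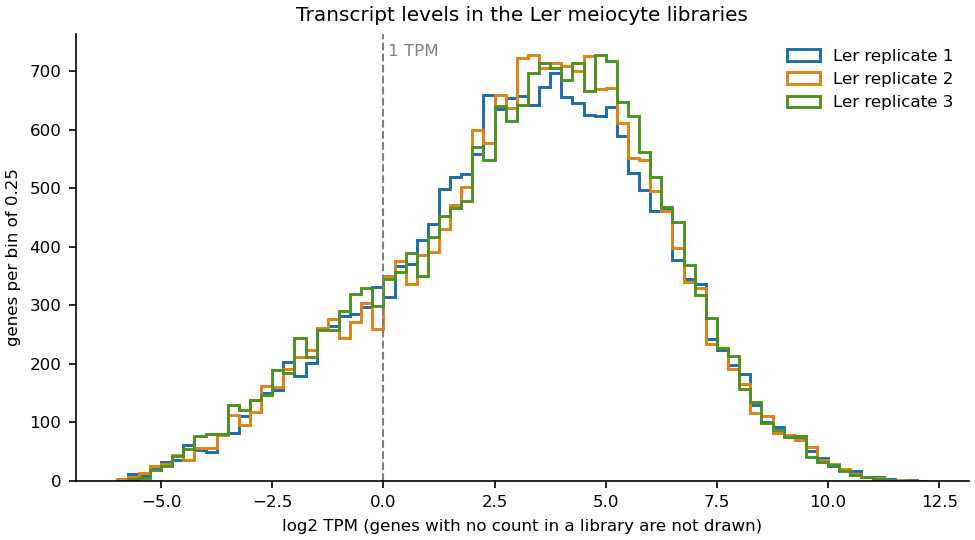
Distribution of log2 TPM (horizontal axis) over genes with a count, as the number of genes per bin (vertical axis), 1 outline per Ler library, with 1 TPM as a dashed line. The 3 outlines share one broad peak above 1 TPM and a shoulder below it, and replicate 1 has the fewest genes at 1 TPM or more (16902, against 17245 and 17345).

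The highest transcripts were those of protein synthesis, protein folding and energy supply, with 1 recombination gene among them. First was AT5G60390, a translation elongation factor of the EF-Tu family, at 3964, 3002 and 3562 TPM. It was the one gene of the 25 highest whose range did not overlap that of the next, HSC70-1, a constitutive chaperone, at 2752, 2379 and 2836 TPM. The other neighbouring pairs, 23 of 24, overlapped, so these replicates do not resolve the order of neighbours below them. The range of AT5G60390 also overlapped that of the gene at rank 3, a peroxidase described below that stood above it in replicate 2.

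Of the 25, 7 encode ribosomal proteins, from AT4G27090 (ribosomal protein L14, 2147 ± 212 TPM), AT3G60245 (2032 ± 418 TPM) and AT1G67430 (2006 ± 40.1 TPM) to AT5G20290 (1863 TPM), emb2171 (1592 TPM), P40 (1543 TPM) and emb2386 (1513 TPM). AT1G67430 had the smallest relative spread of the 25, with 1968, 2002 and 2048 TPM. With them stood FBR12, the translation factor eIF-5A, at 1917 TPM and UBQ1, a ubiquitin fused to a ribosomal protein, at 1551 TPM. The calreticulins CRT1a and CRT1b, chaperones of the endoplasmic reticulum, had 2010.1 and 1594 TPM. Carriers and enzymes of energy supply were AAC1, the mitochondrial ADP/ATP carrier (2379 ± 174 TPM), GAPC1 and FBA8 of glycolysis (2105 and 1597 TPM) and PPa2, a soluble pyrophosphatase (1729.6 TPM). APX1, the cytosolic ascorbate peroxidase, had 2029.6 TPM, RAN2, the GTPase of nuclear transport, 1819, ARFA1E of vesicle traffic 1548, the alpha-tubulin TUA6 1788 and GRP7, a clock- and cold-regulated RNA-binding protein, 1580.5. DMC1 closed the list at 1509 ± 150.1 TPM, 25617 to 40790 reads per library.

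The remaining members of the 25 were a pair of class III peroxidases, secreted enzymes that act on cell walls. AT1G44970 stood at rank 3 with 2447, 3294 and 1903 TPM, and AT4G16270 stood at rank 14 with 1725, 2339.5 and 1370.4 TPM. Both were highest in replicate 2 and lowest in replicate 3, and with coefficients of variation of 27.5% and 27.1% they were the most variable of the 25. Of 76 peroxidase genes they were far above the rest: the family median was 0.0787 TPM and 29 members had no count. Of the 20 at 1 TPM or more, 13 were highest in replicate 2, against 30.1% of all genes. For 7 of the 25 genes an annotated gene on the other strand overlaps, and as the sources used here do not say whether counting used strand, their reads cannot be told apart.

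**Figure D2:**
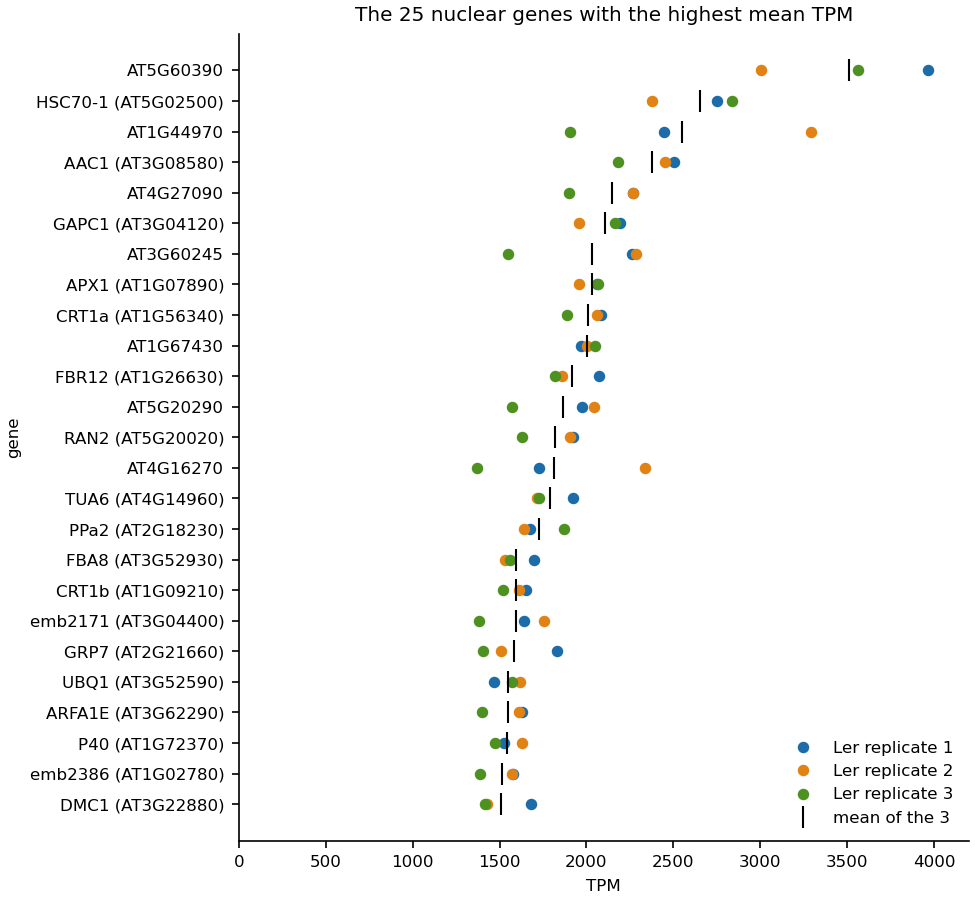
TPM (horizontal axis) of the 25 nuclear genes with the highest mean, 1 coloured point per Ler library and a bar for the mean. AT5G60390 has the highest mean, the peroxidases AT1G44970 and AT4G16270 show the widest relative spreads, and DMC1 stands in last place at 1509 TPM.

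The meiotic machinery as a whole was read from 7 lists of 73 genes ordered by role. All 73 had a mean of 1 TPM or more, against 62.3% of all genes, and 70 reached 10 TPM. Their median was 87.6 TPM, against 4.12 TPM over all genes, and 38 lay above the 90th percentile. By replicate, 43 were highest in replicate 1, 6 in replicate 2 and 24 in replicate 3, while over all genes at 1 TPM or more those shares were 25.9%, 30.1% and 44.0%. Summed, the 73 genes made up 9921, 8894 and 8994 TPM. Some of them, ASY1, ASY4, SCC3, SYN1 and MSH4 included, overlap an annotated gene on the other strand. Reads of such genes cannot be told apart while the counting strand is unknown.

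The chromosome axis, to which sister chromatids are tied and on which recombination takes place, was led by ASY1 and ASY4, a coiled-coil axis protein, whose ranges overlapped: ASY4 had 672, 660.3 and 558 TPM. They were followed at some distance by the cohesin subunits SCC3 (156, 141 and 147 TPM) and SYN1 (122, 103 and 116 TPM) and by ASY3, the partner of ASY1, at 118, 96.1 and 96.4 TPM. ASY1 and ASY4 were above each of these in every library. Between came the cohesin loader SCC2 at 86.7 ± 6.52 TPM and the core subunit SMC3 at 75.3 ± 9.14 TPM, shared with mitosis. Lowest were PANS1, a protector of cohesion, at 13.5 ± 2.63 TPM and the cohesin-release factor WAPL1 at 13.0 ± 2.33 TPM, while its paralogue WAPL2 varied 3.07-fold between libraries, with 10.15, 15.2 and 31.2 TPM. All 14 genes of the list had 10 TPM or more, and the median percentile was 89.7. ZYP1a had 219, 200.4 and 216 TPM and its near-identical neighbour ZYP1b 129, 116 and 109.5 TPM; the sources used here do not say how reads shared by the pair were counted.

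The genes of the break formation list had means between 46.2 and 211 TPM, with a median of 91.5 TPM against 81.0 TPM for the axis list. SPO11-1 and SPO11-2, the topoisomerase-like catalytic pair, had 69.3, 55.3 and 62.0 TPM and 107, 88.4 and 90.3 TPM. SPO11-2 was thus the higher of the pair in every library, and their ranges did not overlap. Annotated genes overlap SPO11-2 on both strands and SPO11-1 on its own strand, and how shared reads were counted is not known. Their partner MTOPVIB had 87.6 ± 5.74 TPM. The accessory factors ranged from PRD1 at 46.2 ± 3.31 TPM and PRD2 at 53.1 ± 4.12 TPM through DFO at 99.5 ± 16.5 TPM to PRD3 at 191, 139 and 137 TPM. PHS1 was highest of the list at 229, 189 and 216 TPM. It is named after the maize gene that brings RAD50, a gene of break processing, into the nucleus. Whether PHS1 takes part in making breaks was not checked. Of the 8 genes, 7 were highest in replicate 1, against 25.9% of all genes at 1 TPM or more.

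Among genes that process breaks and carry out strand exchange, DMC1 exceeded every other in each library, with no overlap. After SDS came MND1, which with AHP2 helps DMC1 to act, at 314, 285 and 253 TPM, then RAD54, a chromatin remodeller of recombination, at 144 ± 9.23 TPM, and RPA1A, a single-strand binding protein, at 126 ± 18.7 TPM. The middle of the list was RAD50 of the break-processing complex at 91.6 ± 10.4 TPM and the recombination gene RAD51C at 89.8 ± 9.70 TPM. Its lowest members were the recombination gene XRCC3 at 16.6 ± 1.88 TPM and NBS1 at 16.1 ± 0.484 TPM, with overlapping ranges.

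Most factors of the interfering crossover pathway, class I, were near or above 100 TPM. PTD was highest, with 243, 254 and 255 TPM, followed by the MutS pair MSH5 at 194, 179.6 and 215 TPM and MSH4 at 167, 168 and 179 TPM, whose ranges did not overlap. ZIP4, a scaffold, had 154 ± 9.71 TPM, the helicase RCK 114 ± 13.8 TPM, the E3 ligase HEI10 109 ± 16.1 TPM and SHOC1, the partner of PTD, 36.8 ± 5.63 TPM. Lowest was MLH3, a MutL protein of late crossover sites, at 7.43, 6.96 and 10.3 TPM, the one gene of the list with a mean under 10 TPM.

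Within the list for non-interfering (class II) and suppressed crossovers, the nuclease MUS81 had 3.42, 5.28 and 5.78 TPM, a percentile of 51.9 and the lowest mean of all 73 meiotic genes. Its partners EME1B and EME1A stood at 69.3 ± 4.23 TPM and 57.4 ± 3.86 TPM. Factors that hold crossovers back ranged widely, with MHF1 (103 ± 6.07 TPM), FLIP (96.5 ± 7.95 TPM) and FIGL1 (95.4 ± 8.89 TPM) highest, RECQ4B at 72.4 ± 8.23 TPM, MHF2 at 80.0, 62.5 and 59.8 TPM and the helicase FANCM at 7.93, 7.45 and 9.40 TPM. FANCM, whose loss raises crossover number, was thus below both of its MHF partners in every library.

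Division genes were led by CDKA;1, the main cell-cycle kinase, at 300.4, 261 and 268 TPM. JASON and PS1, which set the spindles of the second division, had 169 ± 8.06 TPM and 131 ± 12.6 TPM, the cyclin CYCB3;1 139 ± 14.9 TPM, and OSD1, which restrains the anaphase-promoting complex, 109.5, 129 and 131 TPM. TAM stood at 94.1, 97.9 and 131 TPM and TES, a kinesin of meiotic cytokinesis, at 106 ± 8.72 TPM. At the lower end were the kinase AUR1 at 33.1 ± 0.890 TPM and HTR12, the centromeric histone, at 23.9 ± 2.38 TPM. MS5 was the most variable gene of this list, 2.84-fold from its lowest library to its highest, while the list's sum ranged only from 1254 to 1348 TPM.

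**Figure D3:**
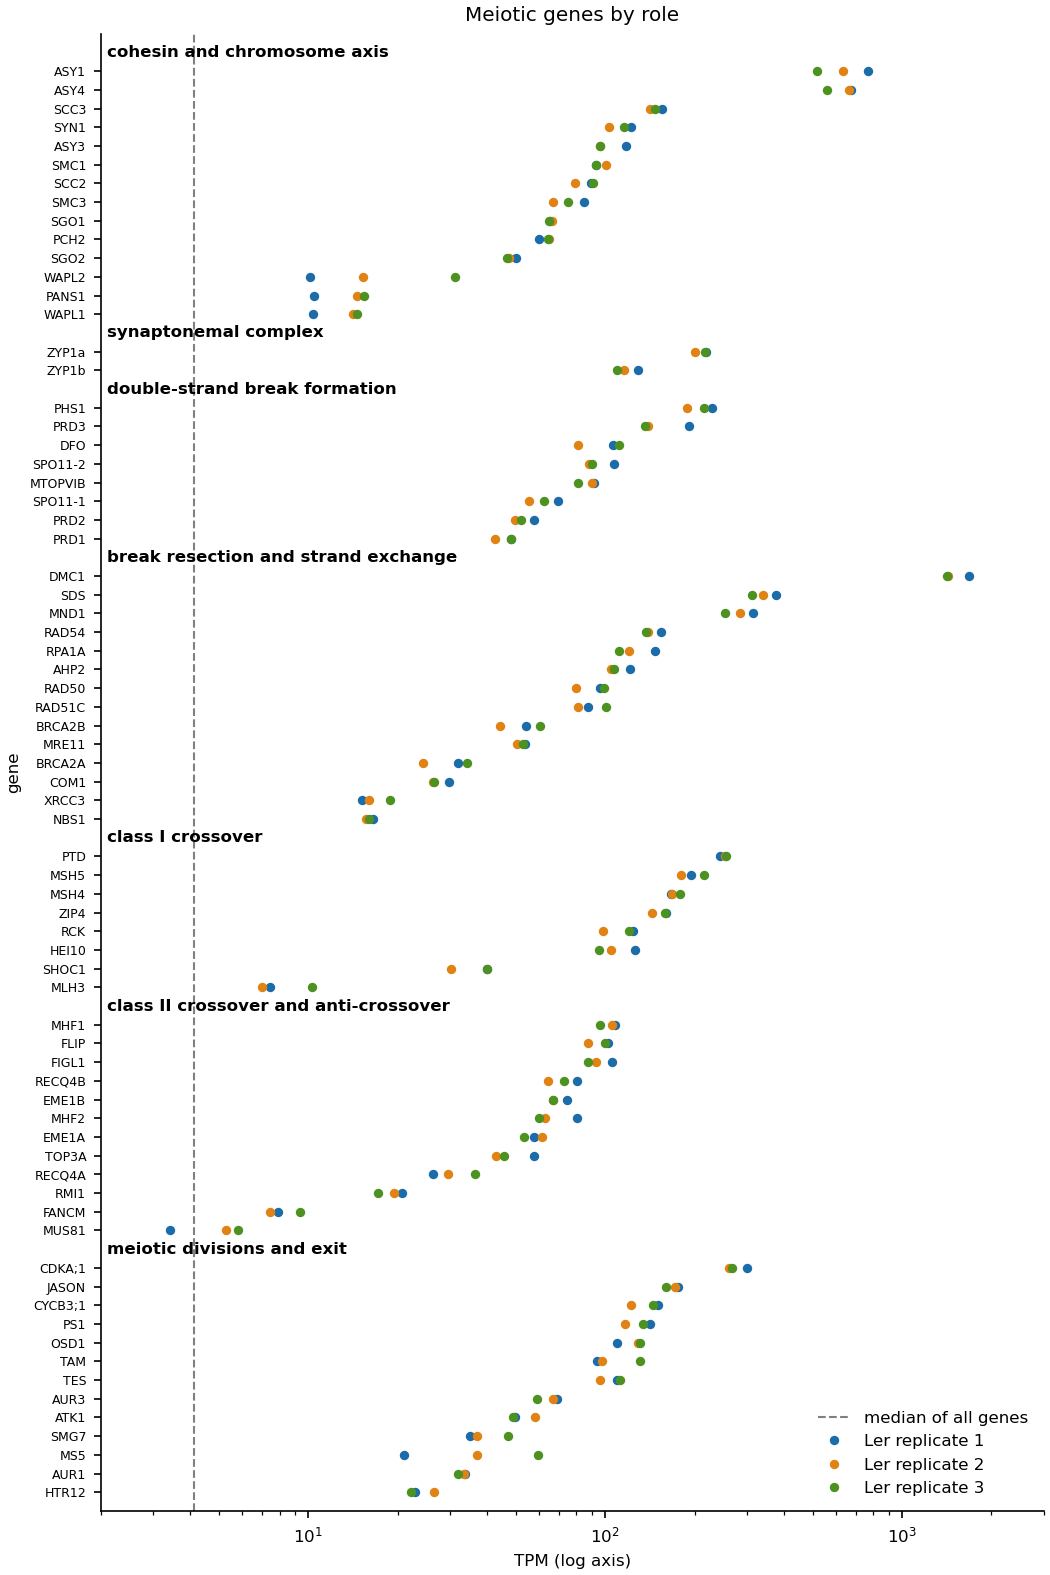
TPM on a log axis (horizontal) of the meiotic genes reported here (vertical, grouped by role and sorted by mean), 1 coloured point per Ler library, with the median of all genes as a dashed line. DMC1, ASY1 and ASY4 stand furthest right, and MS5 and WAPL2 show wide gaps with replicate 1 lowest.

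Genes that specify the sporocyte or start meiosis ran over a wider span, from 0.357 to 550.0 TPM. AGO9, a small-RNA effector that in ovules limits the number of cells entering meiosis, was highest at 563, 459 and 628 TPM, with no overlap to the next. SWI1, needed for sister cohesion and for entry into meiosis, had 132, 107 and 116 TPM. TPD1, the secreted ligand made by sporogenous cells, had 97.9 ± 8.12 TPM, while its receptor EMS1, which acts on the tapetal side, had 15.7 ± 2.86 TPM. The receptor kinases of the early wall layers BAM1 and BAM2 had 28.8 ± 4.92 TPM and 22.8 ± 4.08 TPM. WUS, the stem cell factor of the meristem, had 2.05, 3.35 and 3.22 TPM, and ROXY1, a glutaredoxin of early anther lobes, had 6, 8 and 0 reads.

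KNU (chr5:4522149-4522935, 1 of the C2H2 zinc-finger genes), the repressor named in the series' title, had 139, 129 and 172 TPM from 1709, 1723 and 1579 reads, a percentile of 94.4. The kinase inhibitors in the title were near the median of all genes: KRP1 (ICK1 in the reference, chr2:9976590-9978090) had 5.06, 2.25 and 5.54 TPM and KRP3 (ICK6, chr5:19792270-19794480) 1.71, 4.92 and 4.08 TPM, with overlapping ranges. KRP1 was lowest in replicate 2, where KRP3 was highest. Coordinates are those of TAIR10.1.

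Transcripts for the wall laid around meiocytes and tetrads fell into a high and a low set. RPG1, a sugar transporter needed for the primexine, had 1160.1, 1130.1 and 979 TPM, and CDM1, a zinc-finger regulator of callose, 502, 615 and 683 TPM. CALS5, the callose synthase of this wall, had 379, 338 and 359 TPM, and the primexine proteins NPU and DEX1 272 ± 14.1 TPM and 155 ± 11.3 TPM. These 5 were above 100 TPM in every library. The pectin enzymes that separate the tetrad were low, with QRT3 at 7.71 ± 1.03 TPM, QRT1 at 4.08 ± 0.976 TPM and QRT2 at 1, 3 and 4 reads.

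Tapetal transcripts were present for the early regulators and most sporopollenin enzymes, while 4 genes of pollen coat and exine had no count. A9, an abundant tapetal transcript, had 210.4, 353 and 481 TPM, and AMS, the bHLH factor at the centre of the tapetal cascade, 41.9, 59.6 and 60.5 TPM. DYT1 and TDF1, which act before AMS, had 16.7 ± 2.56 TPM and 18.1 ± 3.18 TPM, and the DYT1 partners bHLH010, bHLH089 and bHLH091 40.2, 27.5 and 10.45 TPM. Of the late regulators, MYB80 had 3 reads in all, in replicate 3, and MS1 none in any library. Of the sporopollenin enzymes, TKPR1 (94.9, 124 and 139 TPM), LAP5 (68.2 ± 6.23 TPM) and ACOS5 (33.0, 36.5 and 33.2 TPM) were at 1 TPM or more. So were the enzymes TKPR2 (26.2 ± 5.06 TPM), CYP704B1 (23.0 ± 4.85 TPM) and LAP6 (17.0 ± 2.81 TPM). The transporter ABCG26 (14.9 ± 5.24 TPM) and the tapetal gene TA1 (42.9 ± 6.10 TPM) reached that level too. MS2 and CYP703A2, also enzymes of the exine, and GRP17 and EXL4 of the pollen coat had no count in any library. ATA7 had 4 reads, all in replicate 2.

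Over the pair of lists, 6 of 8 regulators and 9 of 14 exine and secretion genes had 1 TPM or more, against 62.3% of all genes. Their summed levels were 146, 178 and 177 TPM and 512, 722 and 847 TPM, and the second sum was lowest in replicate 1 and highest in replicate 3, as A9 was. The part of tapetal RNA in any other value was not tested.

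Genes of floral organs, the meristem and the epidermis were present too. Of the 12 floral organ and meristem genes, 8 had a mean of 1 TPM or more, 66.7% against 62.3% of all genes. The stamen identity factors PI and AP3 had 72.6, 100.03 and 68.1 TPM and 66.8, 92.7 and 64.5 TPM, SEP3 and SEP2 29.0 ± 6.64 TPM and 28.0 ± 10.6 TPM, AG 21.6 ± 4.97 TPM and SEP1 9.92 ± 0.713 TPM. CLV1, a receptor kinase of the meristem, had 22.4 ± 1.14 TPM, whereas its ligand gene CLV3 and the stamen boundary gene SUP had no count. The list's sum was 239, 326 and 239 TPM. Epidermal transcripts summed to 269, 396 and 247 TPM, from PDF1 (149, 209 and 137 TPM), LTP1 (54.2, 94.99 and 50.9 TPM), FDH (39.6, 62.9 and 35.6 TPM) and CER1 (16.4 ± 2.94 TPM). The other 4 epidermal genes, KCS6, PDF2, ATML1 and LTP2, were between 1.15 and 3.30 TPM. Both sums were highest in replicate 2, where 5 of 8 floral and 6 of 8 epidermal genes at 1 TPM or more had their highest value, against 30.1% of all genes. The part of epidermal or other floral cells in other values of replicate 2 was not tested.

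Nuclear photosynthesis genes were far up the ranking and highest in replicate 2 as well. CAB1, a chlorophyll-binding antenna protein, had 543, 703 and 597 TPM and RBCS1A, the small subunit of Rubisco, 531, 678 and 535 TPM, with overlapping ranges. LHCA1 (181 ± 26.9 TPM), PSBO1 (139 ± 18.5 TPM), RBCS3B (109 ± 21.2 TPM), PSBP-1 (104 ± 9.22 TPM) and PSAD-1 (69.1 ± 4.24 TPM) followed. The lowest were RBCS1B at 3.34 ± 1.49 TPM and CA1, the carbonic anhydrase of green leaves, at 0.0783, 0.702 and 0.131 TPM. Of the 12 at 1 TPM or more, 10 were highest in replicate 2, against 30.1% of all genes, and the sum was 1836, 2277 and 1819 TPM. RBCS1A, RBCS1B, RBCS2B and RBCS3B are close copies, so the split of reads between them is uncertain.

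The remaining tissue lists had medians below that of all genes. Genes of vessels and secondary walls had means of at most 2.13 TPM, with IRX3 (2.13 ± 0.597 TPM), MYB26 (1.84 ± 0.761 TPM) and SUC2 (0, 0.775 and 2.80 TPM) at 1 TPM or more, HA3, IRX1 and APL below it, and VND7 and NST1 at no count. Seed storage genes, OLEO1, OLE2, SESA1, SESA3, CRU3, CRA1 and LEA4-5, all had means under 1 TPM, with OLEO1 highest at 1.20, 0.194 and 0.660 TPM. Mature pollen and sperm genes had a median of 2.41 TPM. GEX2, a gamete surface protein, had 21.1, 18.4 and 22.8 TPM, and TIP5;1 7.92 ± 2.38 TPM. BCP1 and VGD1, late pollen genes, had 20.9, 8.75 and 20.7 TPM and 20.8, 3.96 and 18.8 TPM, so both were lowest in replicate 2. RALFL4 (5.57, 1.47 and 2.56 TPM) and ANX2 (1.55, 0.412 and 1.06 TPM) were lowest there too, ANX1 was even (2.47, 2.46 and 2.29 TPM), and TIP1;3 had 4 reads, all in replicate 3. The list's sum was 86.3, 43.3 and 84.7 TPM, with 7 of 10 genes highest in replicate 1 and 0 in replicate 2. Over all genes at 1 TPM or more those shares were 25.9% and 30.1%.

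**Figure D4:**
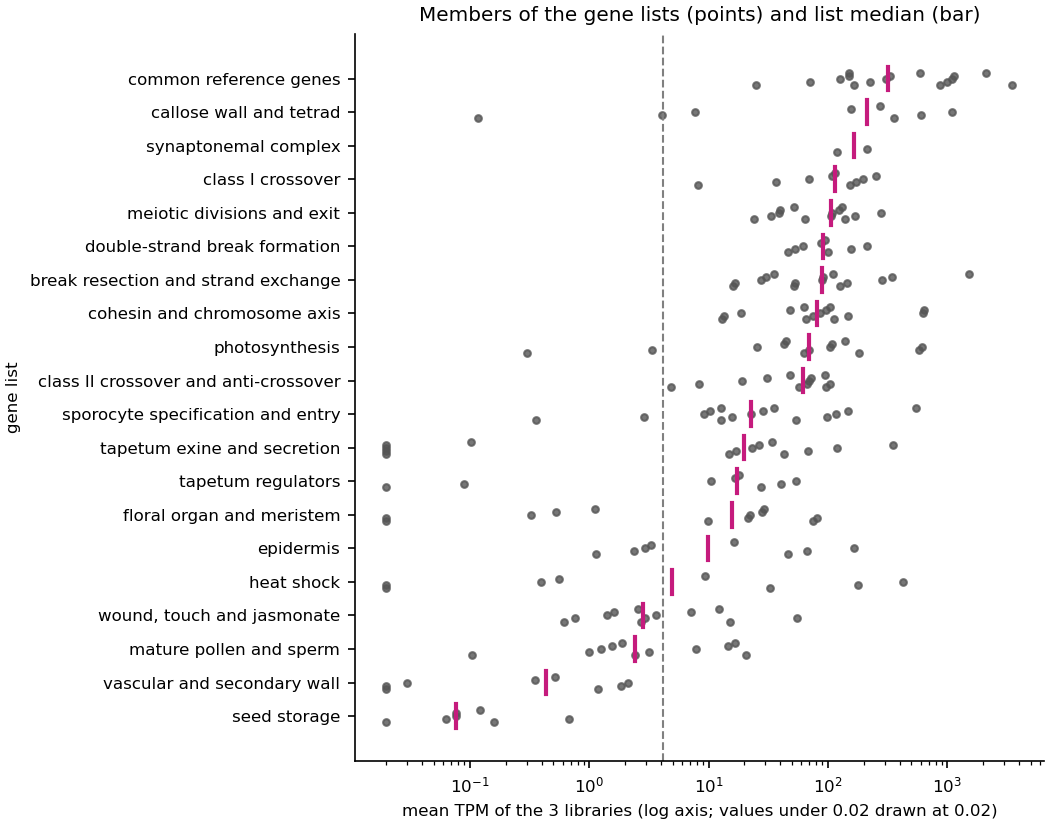
Mean TPM over the 3 Ler libraries on a log axis (horizontal) for each member (point) of the gene lists (vertical, sorted by median), with the list median as a bar and the median of all genes as a dashed line. The 7 meiotic lists have medians between 62.4 and 165 TPM, and the vascular, seed and pollen lists have medians under that of all genes.

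Heat-shock and wound genes were read as possible marks of handling. Among heat-shock genes, HSP90.1 (438, 448 and 401 TPM) and HSP70 (177, 180.2 and 179 TPM) were abundant and even between libraries, and HSP17.4 had 31.0, 23.6 and 43.7 TPM. HSP101 had 9.30 ± 1.56 TPM, HSFA2, the heat-induced factor, 0.559 ± 0.156 TPM, HSP18.2 0.398 ± 0.285 TPM, and HSP21 and HSP17.6II no count. Wound and jasmonate genes had a median of 2.82 TPM. VSP1 was highest at 33.7, 88.5 and 44.3 TPM, above every other of the list in each library, followed by ZAT12 (15.2 ± 3.18 TPM), the touch gene TCH4 (12.3 ± 2.45 TPM), JAZ1 (4.85, 10.01 and 6.69 TPM) and LOX2 (3.32, 6.27 and 1.26 TPM). VSP2 and ZAT10 had 2.92 ± 1.56 TPM and 2.72 ± 0.758 TPM, and CML37 and WRKY33 had means under 1 TPM. Of the 10 genes at 1 TPM or more, 5 were highest in replicate 2, VSP1 among them, against 30.1% of all genes. In replicate 3 it was 4, TCH4 and VSP2 among them, near the 44.0% of all genes. The list's sum was 76.1, 145 and 97.7 TPM, and VSP1 alone made up most of the difference between replicates 1 and 2.

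Genes often used as references for quantitative PCR differed in both level and steadiness. ACT7 (989, 1001 and 969 TPM) and ACT8 (1109, 1094 and 1049 TPM) were even, as was PP2AA3 (72.8, 69.0 and 71.2 TPM), while the elongation factor AT5G60390 had a coefficient of variation of 13.8%. UBC21 was the lowest at 19.0, 27.8 and 28.3 TPM and the least steady, with a coefficient of 20.8%. UBQ5, TUB6 and CYP5 had 1139 ± 116 TPM, 333 ± 27.0 TPM and 304 ± 46.1 TPM. Of the 16 genes, 13 were highest in replicate 1, against 25.9% of all genes at 1 TPM or more.

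Families were taken from the product descriptions of the reference, with no check of protein domains, and protein synthesis took the largest share of transcripts. The 334 ribosomal protein genes held 11.01% of all TPM, with a median of 151 TPM and 34 members among the 100 highest genes. Their sum was 111794, 115311 and 103270 TPM, and 52.0% of those at 1 TPM or more were highest in replicate 2, against 30.1% of all genes. The 41 proteasome genes had the higher median, 233 TPM, and a median SD of log2 TPM of 0.10, with PAF1 at 546 ± 47.9 TPM and the maturation factor AT1G67250 at 546 ± 35.3 TPM. Tubulins had a median of 368 TPM over 17 genes, all at 1 TPM or more, led by TUA6 and TUA2 (1504 ± 147 TPM). Translation elongation factors were led by AT5G60390 and AT1G07920, the latter at 1294 ± 122 TPM. Chaperones, 230 genes with a median of 13.8 TPM, were headed by HSC70-1 and AT5G47600 (919.9 ± 110.2 TPM).

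Histone transcripts, which are made mostly in S phase, had a median of 222 TPM over 48 genes. The 2 highest, AT5G65360 and AT1G09200, had 1603, 1395 and 1262 TPM and 1614, 1431 and 1138 TPM. The histone sum was 16534, 15562 and 13366 TPM, and 25 of 41 genes at 1 TPM or more were highest in replicate 1 and 4 in replicate 3, whereas 44.0% of all genes were highest in replicate 3. Genes described as kinesins were lower, with a median of 16.5 TPM and 42 of 45 at 1 TPM or more. On top were AT4G26410 (246 ± 7.86 TPM), listed as a chromosome-associated kinesin, and AT5G33300 (201 ± 15.7 TPM), listed as kinesin-like. Whether either has a kinesin motor domain was not checked. Actins, profilins and depolymerizing factors were led by ACT8 and ACT7 with 17 of 26 at 1 TPM or more.

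RNA-handling families were broadly expressed at moderate levels. Pentatricopeptide repeat proteins, which edit and splice organelle RNA, had 93.2% of 278 genes at 1 TPM or more but a median of only 8.51 TPM, with AT4G35850 (282 TPM) and PNM1 (158 TPM) highest. Spliceosome and RNA-binding proteins had 86.3% at 1 TPM or more and a median of 27.1 TPM, led by AT3G62840 (958 ± 79.8 TPM) and Y14 of the exon junction complex (469 ± 20.6 TPM). RNA helicases of the DEAD and DEAH families had a median of 20.6 TPM. Highest were AT4G30010 (443 ± 48.9 TPM), described only as an ATP-dependent RNA helicase, and the export helicase UAP56b (266, 264 and 270.4 TPM).

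Transcription factor families were mostly low, and the highest members of each stood far above its median. The 8 families examined had medians between 0.0850 and 1.13 TPM and 26.4% to 52.4% of genes at 1 TPM or more, all under the 62.3% of all genes. The lowest of these medians rest on few reads: that of the MADS-box genes, at a percentile of 23.8, fell to that of genes with no count without replicate 3, and both it and the WRKY median did so when libraries were combined by their median. The highest MYB factors were MYB25 (86.5 ± 4.92 TPM) and MYB77 (72.6 ± 8.13 TPM), and the highest bHLH factors ILR3 (102 ± 14.9 TPM) and AMS. AT3G12510 led the MADS-box genes at 438, 406 and 377 TPM, above PI in every library. WRKY53 led its family at 194, 181 and 164 TPM, with WRKY32 next at 17.1 ± 2.41 TPM. AT4G03120 (194, 181 and 187 TPM) and KNU were the highest C2H2 genes. The NAC genes NAC2 (52.6 ± 13.0 TPM) and NAC082 (48.8 ± 10.95 TPM), the homeobox-annotated AT5G58920 (127 ± 7.26 TPM) and HB33 (32.1 ± 6.63 TPM), and the B3 genes AT2G16210 (44.0 ± 6.78 TPM) and AT5G09780 (14.8 ± 2.68 TPM) headed theirs. Of the NAC genes at 1 TPM or more, 68.8% were highest in replicate 3, against 44.0% of all genes.

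Ubiquitin ligase families differed in their share of silent genes. No count was found for 42.0% of F-box and 31.9% of MATH and TRAF-like genes, against 19.6% of all genes. For RING and U-box genes the share was 19.4%, and for SKP1-like genes 7.41%. F-box proteins, the substrate receptors of SCF ligases, had 274 of 652 genes with no count, yet AT5G36000 reached 313, 295 and 249 TPM and AT4G02740 129.9, 133 and 119 TPM. SKP1-like adaptors were led by SK18 at 219, 222 and 233 TPM and SK4 at 179, 198 and 205 TPM, and 10 of 19 at 1 TPM or more were highest in replicate 3, near the 44.0% of all genes. MATH and TRAF-like proteins had 36.3% at 1 TPM or more, with BPM3 (95.7 ± 10.8 TPM) and AT1G66620 (88.7 ± 6.62 TPM) highest. RING and U-box proteins had 59.3% at that level, with AT2G28430 (413 ± 33.2 TPM) and AT2G14835 (196, 198 and 200.4 TPM) on top.

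Most secreted and cell-surface families were sparse, with some of the most abundant transcripts of the libraries among them. Over all genes, 19.6% had no count. Of 133 lipid transfer genes 66 had no count, while AT3G52130 had 676, 1315 and 1524 TPM and AT4G14805 752, 853 and 1038 TPM, and both were lowest in replicate 1. Defensin-like genes were the most silent family examined, with 155 of 193 at no count, followed by S-protein homologues with 50 of 67. Their highest members were the defensin-like genes AT4G21720 (309.6 ± 20.8 TPM) and LCR69 (54.8 ± 14.4 TPM). Among S-protein homologues they were AT1G60995 (100.05 ± 5.16 TPM), described only as linked to a self-incompatibility locus, and AT1G04645 (28.5 ± 5.90 TPM). Arabinogalactan proteins were not sparse, with 71.9% of 57 genes at 1 TPM or more against 62.3% of all genes. They were led by AT1G15190 (513, 472 and 816 TPM) and AGP15 (585 ± 54.1 TPM). Among wall-loosening and lipid enzymes the highest were the expansins EXPA13 (115 ± 10.4 TPM) and EXPA1 (43.1, 74.4 and 36.4 TPM), the pectin genes AT4G13710 (125, 156 and 213 TPM) and AT5G23390 (148 ± 10.4 TPM), and the GDSL lipases AT3G16370 (154, 216 and 251 TPM) and AT5G41890 (133, 205 and 142 TPM).

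Receptor-like kinases with leucine-rich repeats had 59.9% of 162 genes at 1 TPM or more, with AT1G27190 (83.8 ± 14.7 TPM) and FEI2 (62.1 ± 3.98 TPM) highest. Disease resistance genes of the NBS-LRR class had a median of 0.448 TPM, and AT5G45000 (95.8 ± 11.97 TPM) and AT4G36140 (57.6 ± 7.28 TPM) headed them. Of 239 cytochrome P450 genes 76 reached 1 TPM. CYP98A9, an enzyme of pollen phenolamide synthesis, had 49.0 ± 9.996 TPM, and CYP89A3 was uneven, with 17.5, 34.7 and 84.6 TPM. Genes described as hypothetical or uncharacterized, a wording also given to DFO, MTOPVIB and PANS1, numbered 2924, of which 41.9% had 1 TPM or more. The 3 highest were AT5G59895 (1388 ± 32.7 TPM, 183 bp), AT1G74035 (1124 ± 73.9 TPM, 294 bp) and AT1G64633 (1069 ± 347 TPM). Each overlaps a gene on the other strand, and AT1G64633 has a listed length of 3 bp, so that 30 to 69 reads became a TPM near the top. For such short models a TPM is not a usable level. Of the 70 genes that were the 2 highest of their families, 25 overlap an annotated gene on the other strand and share this uncertainty, AT3G12510, WRKY53, AT4G03120 and AT5G36000 among them.

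Replicates were close. Spearman's rank correlation across all genes, which are not independent replicates, was 0.973 for replicates 1 and 2, 0.970 for 1 and 3 and 0.974 for 2 and 3. Each pair shared 89 to 90 of the 100 highest nuclear genes. Among genes with a mean of 1 TPM or more the median SD of log2 TPM was 0.22, and 17.58% differed by more than 2-fold between their lowest and highest library. The biological coefficient of variation estimated by edgeR over all genes that passed its filter was 0.229. Spread fell with level, from a median SD of 0.40 at 1 to 10 TPM to 0.18 at 10 to 100 TPM and 0.11 at 100 to 1000 TPM. Counting error alone would give 0.15, 0.054 and 0.022, well under what was observed at each level. Chi-square statistics of the counts were 20.3 to 29.4 times their degrees of freedom, so no library is a second copy of another.

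**Figure D5:**
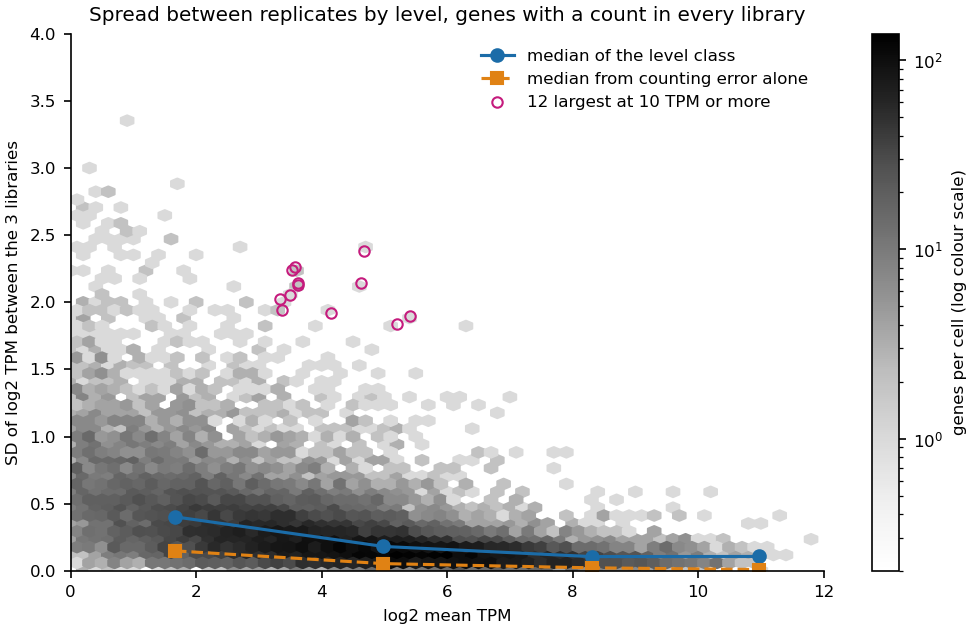
SD of log2 TPM between the 3 Ler libraries (vertical) against log2 mean TPM (horizontal), as a density of genes with a mean of 1 TPM or more and a count in every library. Circles mark the 12 largest SDs at 10 TPM or more. The median of each level class (line with points) falls up to 1000 TPM, is level from there, and lies above the median expected from counting error alone (dashed line with squares).

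Among genes at 10 TPM or more, those with 1 library far above the other two were mostly high in replicate 3. PORB, an enzyme of chlorophyll synthesis, had 2.96, 5.63 and 67.9 TPM, and AT4G30650, a low-temperature and salt responsive gene, 2.29, 1.90 and 31.4 TPM. Its relative RCI2A had 5.09, 8.03 and 38.6 TPM, the SKP1-like SK6 1.24, 5.47 and 27.9 TPM and the PAH2 protein AT1G24230 3.90, 6.21 and 27.4 TPM. Each was more than 1 log2 unit higher in replicate 3 than in either other library. The same was true of 99 of 10570 genes at 10 TPM or more, against 7 for replicate 1 and 2 for replicate 2. AT1G31095, a 201 bp model overlapped on the other strand, was the exception, with 43.9, 3.51 and 5.96 TPM.

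Other variable genes had 1 low library. Far lower in replicate 1 than in the others were the zinc finger AT3G46070 (1.37, 15.2 and 20.2 TPM) and BT3 (1.41, 9.21 and 23.2 TPM). BT3 was also uneven between replicates 2 and 3. In all, 110 genes lay more than 1 log2 unit below both other libraries in replicate 1. The F-box gene DAF1 was low in replicate 2, with 20.2, 1.35 and 15.3 TPM. MT1A, a metallothionein, and the chloroplast genes ATCG00300 and ATCG00630 were low in replicate 3, with 62.5, 58.8 and 6.20 TPM for MT1A. These 3 models are under 200 bp long and had 2 to 10 reads in that library. AT4G14530, an AGAMOUS-like gene, and AT3G57960, an ENT-domain gene, were spread over all 3 libraries, with 1.53, 6.85 and 22.5 TPM and 5.99, 28.9 and 74.9 TPM, lowest in replicate 1 and highest in replicate 3 as MS5 and MMD1 were.

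At the other end, AT1G67690, a metalloprotease, had 102 TPM in all 3 libraries. The next steadiest were GSTL2, AT4G08520, AT4G27120, AT1G66530, AT2G20060, TPS1, AT4G05400, AT3G56120, PFD5, AT2G32350 and PFK7, with SDs of log2 TPM no greater than 0.0062 and means from 13.6 TPM for GSTL2 to 683 TPM for AT4G08520. Their SDs lie below the medians of counting error given above, and they are the extreme of 10570 genes. None of the genes often used as references was among them.

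Levels varied with the structure of genes. Of 5199 nuclear genes with 1 exon 41.5% had 1 TPM or more and the median was 0.376 TPM. With 6 to 10 exons these values were 76.8% and 10.3 TPM, and with 21 or more 95.05% and 26.7 TPM. Length showed the same for the share expressed, 22.3% under 500 bp and 90.3% from 4000 bp. For 100 TPM it showed no such order, with 2.34% of genes under 500 bp, 10.4% from 500 to 1000 bp and 6.09% from 4000 bp. A longer gene collects more reads at the same TPM, and the part of this in the share of genes with no count was not tested. Chromosomes differed little, from 58.6% at 1 TPM or more on chromosome 2 to 63.6% on chromosome 3.

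The share of genes with counts differed more with gene density than between chromosomes. In megabases with fewer than 100 genes of the files, 52.7% of 696 genes had no count, against 15.5% of 19388 genes where 250 or more lie together. High levels differed less between them, 6.47% and 8.76% of all genes reaching 100 TPM. Neighbours resembled each other weakly: Spearman's correlation of mean TPM was 0.255 over 13764 pairs in the same direction, 0.161 over 6067 divergent pairs and 0.176 over 4079 convergent pairs. Within 500 bp the divergent value was 0.238 and the convergent 0.102. Neighbours can share reads at their borders and tandem copies share sequence, so these are descriptions only.

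Organelle transcripts took 0.0494% to 0.0554% of counts, in libraries selected for poly-A tails, which organelle messages mostly lack. Of 88 chloroplast genes 57 and of 122 mitochondrial genes 35 had a mean of 1 TPM or more. The highest of the chloroplast were ATCG00790 (127, 119.6 and 98.8 TPM), ATCG00440 (85.4, 89.7 and 142 TPM) and ATCG00430 (66.7 ± 12.2 TPM). Of the mitochondrion, ATMG00030 had 305, 426 and 209.8 TPM and ATMG00660 104, 133 and 81.8 TPM, both highest in replicate 2, while ATMG00665, listed with 22 bp, rests on 19 to 50 reads. Nuclear photosynthesis genes, by comparison, summed to 1819 to 2277 TPM over 13 genes, and all chloroplast genes together to 733 to 822 TPM.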

How the data were processed

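The deposited tables hold raw read counts per gene and a length for each gene, as the authors' counting gave them, with 1 table for each library. Per the labels' protocols, RNA was extracted with TRIzol, messenger RNA was purified on poly-T beads and complementary DNA was primed with random hexamers. No step that marks strand is named there, and the sources used here do not name the aligner, the counter, the genome build or the counting strand. Only the 3 Ler tables were read. Counts were divided by the listed length and scaled to TPM, summing to 1000000 in each library.

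All statistics are descriptive: the mean, SD, rank and percentile of TPM, the SD of log2(TPM + 0.01), and the share of genes at 1 TPM or more. The biological coefficient of variation came from edgeR 4.0.16 in R 4.3.3, after its filter on low counts left 17288 genes, and the script was checked on simulated data. Other steps used Python 3.11.15 with numpy 2.4.6, pandas 2.3.3, scipy 1.17.1 and matplotlib 3.10.9. Symbols, product descriptions, exons and promoter windows were read from the RefSeq reference on TAIR10.1, which matched all 27445 nuclear genes. Families were defined by words in the product descriptions, and those words were tightened, and the SKP1-like family added, after counts were seen. Of 215 gene list entries 213 had an ID whose symbol matched, and 2 were dropped.

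Genes named are the 25 highest nuclear genes, all members of lists of up to 9, the 5 highest, 2 middle and 2 lowest of longer lists, and the 2 highest of each family. To these were added the 12 most and 12 least variable genes at 10 TPM or more, the 6 with the widest gap above and the 6 with the widest gap below, the genes of the series' title, the 3 highest genes of unknown product and the 3 highest of each organelle. A few further list members, the defining markers among them, are named outside that rule after their values were seen. The members and lists were chosen with earlier results of these data known. Alternatives were CPM, TPM without organelle genes, 2 other scalings, the median, each library left out in turn, and other thresholds and pseudocounts. Leaving out genes under 200 bp was chosen after seeing the data. Values of 2 genes that count in the list totals are not reported here.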

Additional observations from a re-analysis of the deposited data

How the results depend on the processing

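The number of genes at 1 TPM or more and the number with no count stayed within 1.5 times the reported values under every alternative run. Dropping the length correction (CPM) had the widest effect. It gave a median of 18.7 CPM over genes at 1 CPM or more, 11.96% of counts in the 100 highest genes, 13 of the 25 highest genes shared, a lowest Spearman correlation of 0.974 and a site II share of 30.6% in the 1000 highest genes. It moved the percentile of AT1G64633, of 3 bp, from 99.8 to 43.3. The 10 highest genes held 2.37% and the 1000 highest 48.8% of TPM, and the site II share was 40.6% in the 500 and 31.6% in the 2000 highest genes. The median SD of log2 TPM was 0.25 over genes with a count in every library, 0.16 at 10 TPM or more and 0.20 with a pseudocount of 1. With 1 library left out it ranged from 0.17 to 0.20, the lowest Spearman correlation from 0.970 to 0.974, the site II share from 35.3% to 36% and the biological coefficient of variation from 0.213 to 0.255. That coefficient was 0.290 without the filter on low counts. Scaling by TMM or median-ratio factors moved no median percentile of the 20 gene lists beyond the spread between replicates. Such factors multiply a whole library and can hardly change ranks, so this says little. CPM moved 11 of those 20 beyond that spread, 18 of 35 family medians and 193 of 279 percentiles of named genes. The coefficient was not run for CPM or for the median, which it does not use. No paired analysis was possible because 1 group was described. With 3 libraries an SD is itself imprecise, and at 1 to 10 TPM depth limits the levels most, since counting error there had a median SD of 0.15 on the log2 scale.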
